A study of Mus musculus with 25 samples.

Results

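The transforming growth factor beta (TGF beta) pathway was followed here through 10 genes of the salivary glands, picked by gene symbol from the annotation of the array. They are the 3 ligand genes Tgfb1, Tgfb2 and Tgfb3, the 3 receptor genes Tgfbr1, Tgfbr2 and Tgfbr3, the signal carrier Smad3 and its inhibitor Smad7, the latency protein gene Ltbp1 and the induced matrix gene Tgfbi. All 10 had at least 1 expressed probe set, among 11696 genes with one and 18194 genes measured in all, and were set against a list of matrix genes that fell with age. The RNA came from male C57BL/6.NOD-Aec1Aec2 mice, an inbred model of Sjögren's syndrome in which the Idd3 and Idd5 susceptibility regions of the NOD strain (named Aec1 and Aec2) sit on a C57BL/6 background. Groups differed only in age, with 5 mice at each of 5 ages (4, 8, 12, 16 or 20 weeks) and 1 Affymetrix whole-genome mouse array of 45101 probe sets per mouse, so all 25 mice carried both NOD regions and none received a treatment. Each array held RNA of submandibular, sublingual and parotid lobes together, with the draining lymph nodes removed, and the mice of an age came from at least 2 litters. The study set 4 weeks as its baseline before disease. It tied 8 weeks to the early pre-clinical stage, 12 weeks to the first leukocyte influx, 16 weeks to early clinical autoimmunity and 20 weeks to secretory dysfunction. Mice of the parental C57BL/6J strain were not analysed here, so age and disease cannot be told apart in any comparison below.

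TGF beta ligands are secreted in a latent form, folded into their own propeptide and tethered to the matrix by latent TGF beta binding proteins such as Ltbp1. Integrins, proteases and thrombospondin release them. The free ligand binds the type II receptor Tgfbr2, which recruits and phosphorylates the type I receptor Tgfbr1, and that kinase in turn phosphorylates Smad2 and Smad3, which enter the nucleus with Smad4. Smad7 is induced by the pathway and shuts the receptor down, while Tgfbr3 (betaglycan) presents ligand, Tgfb2 above all, to the signalling receptors. The pathway is known for driving collagen synthesis in fibroblasts, for restraining T cells and for its part in branching and duct growth of the salivary gland.

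All expression levels below are the deposited log2 values, averaged over the expressed probe sets of a gene, where 1 unit is a 2-fold difference. Levels were compared between ages and never between genes, since probe sets differ in brightness. In the text rose and fell mean an adjusted p under 0.05 in a limma fit to all 18194 genes, and standard errors (SE) come from that fit.

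The tissue matched its label, as all 5 acinar and duct genes checked (Aqp5, Slc12a2, Bhlha15, Krt8 and Krt18) were expressed at every age. Of the 25 arrays, 3 stood apart with the lowest upper quartiles, namely 5.34 in mouse 4 at 4 weeks, 5.20 in mouse 2 at 16 weeks and 5.19 in mouse 3 at 20 weeks, against 5.54 to 5.98 in the other 22. The 20-week array was the most distant. Its median correlation with arrays of its own age was 0.887, against 0.973 to 0.996 in those 22, and its 3' Gapdh probe set exceeded the 5' one by 3.87 log2 units, against 0.05 to 1.68. Results that lean on these arrays are given with and without them.

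Few members changed with age. Against 4 weeks, 2 of 10 rose at 12 weeks (Tgfb1 and Tgfb3), and 0 of 10 rose at 8, 16 or 20 weeks. The share of all genes that rose was 1.48%, 5.66%, 1.71% and 1.14% at the 4 ages in turn. In a fit to the 11696 genes with an expressed probe set alone, it was 3.31%, 10.8%, 3.3% and 2.08%. No member fell at any age, against 0.78%, 1.36%, 1.68% and 1.52% of all genes and 1.21%, 2.04%, 2.76% and 2.65% in the fit to expressed genes. Before adjustment, 4, 2, 3 and 0 members had a limma p under 0.05 at 8, 12, 16 and 20 weeks, where 14%, 20.7%, 14.4% and 12.4% of all genes did. The median log2 fold change of the 10 members was 0.19, 0.25, 0.15 and 0.09, beside 0.098, 0.14, 0.018 and 0.065 over all genes with an expressed probe set. At 8 and 12 weeks the largest differences among the 10 were those of the ligand genes and Tgfbr1, and the other members lay on either side of 0.

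Tgfb3, a ligand gene of epithelia and mesenchyme, had the largest log2 fold change of the members at 8 and 12 weeks. At 4 weeks its values were 7.16, 6.87, 5.74, 5.57 and 6.80 in mice 1 to 5. At 8 weeks they were 7.59, 7.71, 8.03, 7.62 and 8.30, and at 12 weeks 8.43, 8.42, 7.96, 8.37 and 8.11. All 5 mice of either later age lay above all 5 at 4 weeks. The log2 fold change was 1.42 ± 0.495 (SE, n = 5 per age; limma adjusted p = 0.15) at 8 weeks and 1.83 ± 0.495 at 12 weeks (adjusted p = 0.0281), a 3.55-fold increase. At 16 weeks the values were 7.91, 7.15, 7.25, 7.21 and 8.25, and at 20 weeks 8.56, 8.10, 4.72, 7.95 and 7.66. Every mouse but 1 at each of these ages exceeded the 4-week mice. The log2 fold changes were 1.12 (adjusted p = 0.281) and 0.97 (0.453), and the low value at 20 weeks was that of the array that stood farthest apart. Without that 1 array Tgfb3 rose at every age, with log2 fold changes of 1.42 (adjusted p = 0.00522), 1.83 (0.000354), 1.12 (0.0186) and 1.64 (0.00215) at 8, 12, 16 and 20 weeks. The share of all genes that rose was also higher without it, at 5.14%, 13.3%, 4.11% and 6.23%.

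Tgfb1, the ligand that leukocytes make most of, followed at a smaller size. Its 4-week values were 5.06, 5.72, 5.72, 4.74 and 6.39, a wide spread in which mouse 5 stood highest. At 8 weeks they were 6.41, 6.29, 6.15, 6.54 and 6.36, overlapping with that mouse, and at 12 weeks 6.49, 6.93, 6.56, 6.77 and 6.79, above all 5. The log2 fold change was 0.83 ± 0.352 at 8 weeks (adjusted p = 0.27) and 1.19 ± 0.352 at 12 weeks (adjusted p = 0.0443), a 2.27-fold increase just inside the threshold. At 16 weeks 4 mice lay between 6.52 and 7.07 and mouse 2 at 5.16, giving 1.02 (adjusted p = 0.132). At 20 weeks 4 mice lay between 6.02 and 6.53 and mouse 3 at 4.69, giving 0.40 (adjusted p = 0.758). Both low values came from arrays that stood apart. Without the 20-week array of mouse 3, Tgfb1 rose at 12 weeks (adjusted p = 0.0112) and at 16 weeks (0.0454) and was at 0.71 at 20 weeks (0.192). Without the 16-week array of mouse 2 it rose at 16 weeks as well, by 1.37 (adjusted p = 0.0125).

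Tgfb2, the ligand that depends most on betaglycan, stayed short of the threshold throughout. Its values were 10.11, 9.42, 8.83, 7.97 and 9.89 at 4 weeks, 10.42, 10.72, 10.81, 10.02 and 10.97 at 8 weeks and 10.23, 10.69, 10.21, 10.60 and 10.37 at 12 weeks. The 12-week mice lay above all 5 at 4 weeks, and 1 of the 8-week mice did not. The log2 fold changes were 1.34 ± 0.579 (adjusted p = 0.274), 1.18 (0.257), 0.96 (0.518) and 0.22 (0.901) from 8 to 20 weeks. At 20 weeks mouse 3 was at 6.37, far below the other 4 (9.26 to 10.68). Without that array the log2 fold change was 1.34 (adjusted p = 0.0224) at 8 weeks, 1.18 (0.0229) at 12 weeks and 0.99 (0.0967) at 20 weeks. Groups that did not overlap with the 4-week mice on the upper side were thus Tgfb3 alone at 8 weeks (1 of 10 members, 4.58% of all genes) and the 3 ligand genes at 12 weeks (3 of 10, 12.5% of all genes). At 16 and 20 weeks 0 of 10 members lay wholly above (2.22% and 1.22% of all genes), and wholly below lay 0 of 10 at any age (4.05%, 21.1%, 2.16% and 1.35% of all genes from 8 to 20 weeks).

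**Figure D1:**
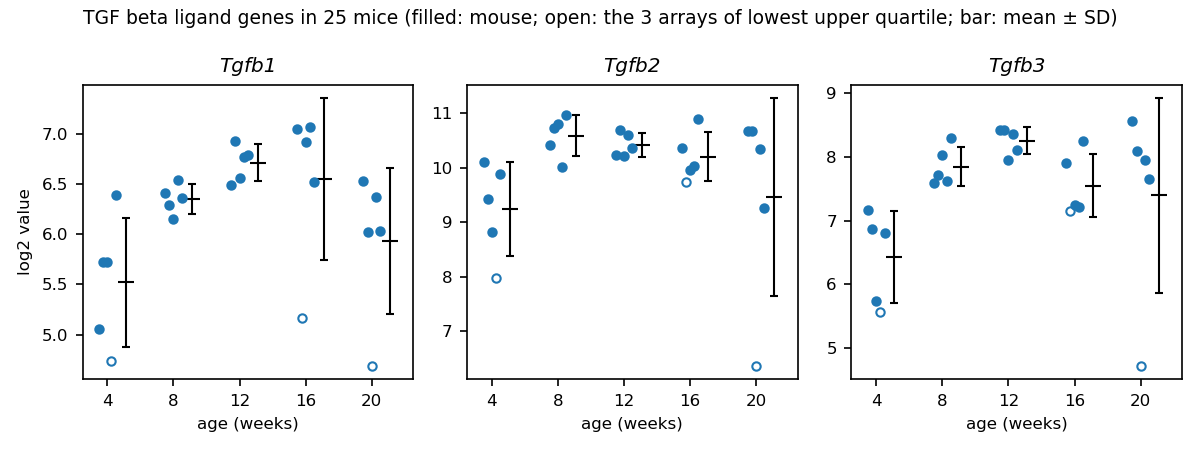
Log2 values of Tgfb1, Tgfb2 and Tgfb3 in each of 25 mice against age in weeks, with 5 mice per age. Points are mice, open points the 3 arrays of lowest upper quartile, and bars the mean ± SD. The 12-week mice sit above all 4-week mice for each gene, and the lowest 20-week point of each panel is mouse 3.

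The upper quartile of an array moved with age in the same direction as the ligand genes. It lay between 5.34 and 5.75 at 4 weeks and between 5.69 and 5.93 at 12 weeks. With the upper quartile as a covariate, a setting chosen after the data were seen, the 12-week log2 fold change of Tgfb3 was 1.09 (adjusted p = 0.0589) and that of Tgfb1 0.68 (0.129), and neither passed. The same held after quantile normalization between arrays, with 1.49 (0.057) for Tgfb3 and 0.92 (0.0868) for Tgfb1. Quantile normalization also changed the balance of calls over all genes at 12 weeks, from 1029 that rose and 247 that fell to 639 and 500. Both calls also lay close enough to the threshold to be lost when single arrays were left out. Leaving out an array of 8, 16 or 20 weeks did not alter the 12-week difference itself, only the spread estimated by the fit and the adjustment. The Tgfb1 call was lost when any 1 of 17 arrays was left out (log2 fold change 0.99 to 1.24, adjusted p up to 0.154), which were those of 4-week mice 1 to 4, of all 5 mice at 8 and at 12 weeks, of 16-week mice 3 and 5 and of 20-week mouse 2. The Tgfb3 call was lost without any 1 of 6 (1.61 to 1.86, adjusted p up to 0.0963), namely 4-week mice 3 and 4 and 12-week mice 1, 2, 4 and 5.

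Tgfb2 was read by 4 probe sets, which differed in their 20-week values. The brightest gave log2 fold changes of 1.51, 1.28, 1.29 and 1.41 at 8, 12, 16 and 20 weeks, and 1 of the others gave 1.00, 0.64, 0.37 and -1.03. Mouse 3 at 20 weeks read 10.67 on the first and 3.45 on the second. No single probe set of Tgfb2 passed (smallest adjusted p = 0.0542). Tgfb3 rested on 1 probe set and Tgfb1 on 1 of 2, the other being below the expression cutoff of 3.27.

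Sequences upstream of a transcription start are shown for Tgfb1, Tgfb2 and Tgfbr1, as 3 of the 4 members whose values stood highest above 4 weeks. They come from RefSeq (GRCm38.p6), which gave windows of 250 bases before to 50 bases after a start for 7 of the 10 members (9 windows) in the table used here. The 250 upstream bases are printed 5′ to 3′ on the strand of the gene, and capitals mark CAGACA, the core of the CAGA box that Smad3 and Smad4 are known to bind.
Tgfb1, chr7:25686752-25687001, plus strand: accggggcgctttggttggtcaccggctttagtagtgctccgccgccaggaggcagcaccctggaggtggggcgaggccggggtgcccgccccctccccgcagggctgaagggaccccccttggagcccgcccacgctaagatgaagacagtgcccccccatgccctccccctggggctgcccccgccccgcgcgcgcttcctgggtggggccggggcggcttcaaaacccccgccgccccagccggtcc
Tgfb2, chr1:186705990-186706239, minus strand: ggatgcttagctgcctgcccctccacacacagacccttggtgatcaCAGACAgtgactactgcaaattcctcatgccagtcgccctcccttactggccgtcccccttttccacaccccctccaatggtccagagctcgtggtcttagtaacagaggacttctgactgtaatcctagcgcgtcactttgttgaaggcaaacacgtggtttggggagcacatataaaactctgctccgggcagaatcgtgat
Tgfbr1, chr4:47385966-47386215, plus strand: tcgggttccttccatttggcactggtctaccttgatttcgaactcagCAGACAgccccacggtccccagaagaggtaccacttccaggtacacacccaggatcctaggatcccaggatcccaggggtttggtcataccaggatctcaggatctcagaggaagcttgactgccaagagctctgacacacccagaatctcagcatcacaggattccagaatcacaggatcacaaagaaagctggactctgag
Searched on both strands, CAGACA was found in 3 of the 9 member windows, 1 each of Tgfb2, Tgfbr1 and Ltbp1, and in 21.0% of all 32851 windows. Its first base lay at position -204 from the start of Tgfb2 and at -203 from this start of Tgfbr1. Of the Tgfbr1 windows the one that held a match is shown, and the other RefSeq start had none. The window of that other start, chr4:47352972-47353271 on the plus strand, lies upstream of the one shown. Its GC content was 74.7%, against 52.0% for the Tgfbr1 window shown. GTCTAGA, another Smad element, was in 0 of 9 and in 2.19% of all windows, and TGAGTCA, the AP-1 site, in 0 of 9 and in 5.20%. The Tgfb1 window had a GC content of 77.0%, against 54.3% for Tgfb2.

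Of the receptor genes none passed the test. Tgfbr1, the type I kinase, stood highest at 8 weeks with 7.84, 7.64, 8.08, 6.71 and 7.55, against 6.95, 6.72, 6.04, 6.25 and 6.41 at 4 weeks. Only mouse 4 of the 8-week group lay among the 4-week values. The log2 fold changes were 1.09 ± 0.428 (adjusted p = 0.22) at 8 weeks, 0.74 (0.352) at 12 weeks, 0.37 (0.914) at 16 weeks and 0.61 (0.691) at 20 weeks. At 20 weeks the gene was spread widely, with 8.13, 8.09 and 7.61 in mice 1, 2 and 4 and 5.41 and 6.15 in mice 3 and 5. The same mice 1, 2 and 4 had the largest gap between the 3' and 5' probe sets of Tfrc, a control for RNA integrity. It was 2.01, 1.86 and 1.57 log2 units, against 0.65 to 1.25 in the other 22 arrays. The gap of Gapdh ran the other way. It was smallest in these mice, at 0.05, 0.08 and 0.21, against 0.22 to 3.87 in the other 22 arrays. The part of RNA integrity in the spread was not tested. The result depended on the probe set. The brightest of its 3 probe sets gave 1.22 and 1.21 at 8 and 12 weeks, and used alone for the gene it rose at both ages (adjusted p = 0.0424 and 0.0209).

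Tgfbr2, the type II kinase that binds ligand first, stayed within 0.23 log2 units across the 5 age means, as the average of 2 probe sets. Its values ran from 5.26 to 5.57 at 4 weeks, 5.08 to 5.30 at 8 weeks, 5.22 to 5.55 at 12 weeks, 4.40 to 5.64 at 16 weeks and 4.63 to 5.53 at 20 weeks. The lowest values were again those of 16-week mouse 2 and 20-week mouse 3. The log2 fold changes were -0.21, -0.03, -0.17 and -0.23 (SE 0.182), with adjusted p of at least 0.703. Tgfbr3 had log2 fold changes of 0.32, 0.41, 0.18 and -0.78 (SE 0.605). Its 20-week values of 7.31, 6.94, 2.75, 7.19 and 5.16 included 1, that of mouse 3, below the expression cutoff, and without that array the 20-week difference was 0.00.

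Averaged over their expressed probe sets, the signal carriers and the latency gene varied little. Smad3, which transmits the signal to the nucleus, ranged over 4.89 to 5.33 at 4 weeks and 4.67 to 4.95 at 16 weeks, where its log2 fold change was -0.23 ± 0.103 (adjusted p = 0.303). At 8, 12 and 20 weeks it was -0.19, -0.18 and -0.03. The 2 probe sets averaged for Smad3 differed. The brighter (mean 6.13) gave -0.32, -0.28, -0.50 and -0.29 at 8, 12, 16 and 20 weeks. Tested singly, its smallest limma adjusted p was 0.0764, at 16 weeks. The dimmer (mean 3.74) gave -0.05, -0.08, 0.05 and 0.23. Smad7, the feedback inhibitor, had the narrowest span of age means of the 10 (0.18), with log2 fold changes of 0.02, 0.09, 0.12 and -0.07 (SE 0.167). Its medians were 5.84, 5.70, 5.78, 6.07 and 5.62 from 4 to 20 weeks, and the values of every later age overlapped with those at 4 weeks. Ltbp1, which holds latent TGF beta in the matrix, had 0.06, -0.04, -0.27 and 0.38 (SE 0.216). Its values at 20 weeks (4.94 to 5.72) lay above all 5 at 16 weeks (4.08 to 4.92), a difference of 0.65 that did not pass (adjusted p = 0.427).

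Tgfbi, an adhesive matrix protein gene named for its induction by TGF beta, did not pass at any age. Its values were 7.33, 7.43, 8.03, 7.47 and 7.68 at 4 weeks and 7.01, 6.84, 6.70, 7.87 and 6.99 at 8 weeks. All but mouse 4 of the 8-week group were under the 4-week mice. The log2 fold changes were -0.51, -0.48, -0.17 and -0.51 (SE 0.323), with adjusted p from 0.462 to 0.926. Its 4 probe sets gave the same sign at all 4 ages. The sign at 16 weeks turned without mouse 2 of that age (0.17), without the 3 arrays that stood apart (0.14) and with array weights (0.01).

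**Figure D2:**
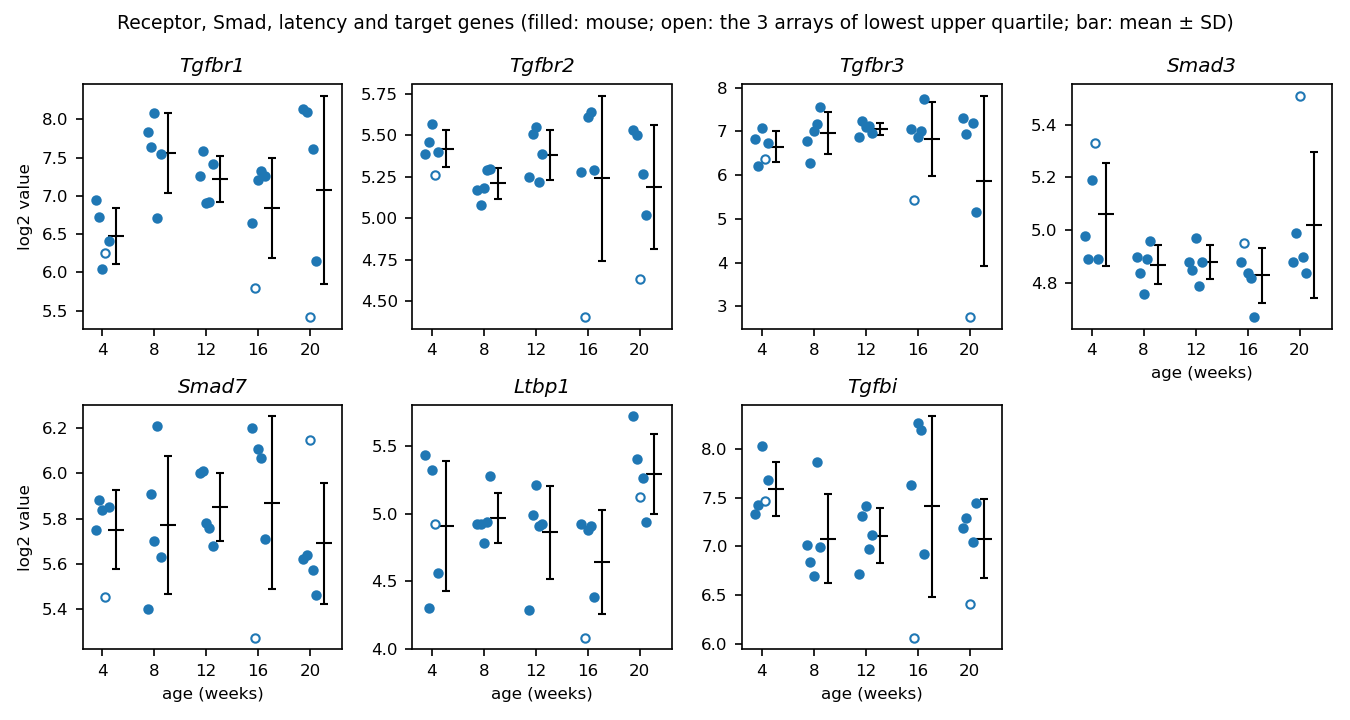
Log2 values of Tgfbr1, Tgfbr2, Tgfbr3, Smad3, Smad7, Ltbp1 and Tgfbi in each of 25 mice against age in weeks. Points are mice, open points the 3 arrays of lowest upper quartile, and bars the mean ± SD (5 mice per age). None of these genes passed the test at any age, and the open points lie at the edge of many panels.

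Over all ages at once, no member passed the F-test for any change with age (adjusted p from 0.154 for Tgfb3 and 0.157 for Tgfb1 to 0.835 for Smad7), where 4.66% of all genes did. Without adjustment 2 members, Tgfb3 and Tgfb1, had an F-test p under 0.05 in limma, beside 18.6% of all genes. Polynomials of age gave the same picture. No member had a term with a B-statistic over 1.5, the rule of the study's methods, against 1.92% of all genes. The quadratic term alone, which measures a rise and a return, was adjusted p = 0.0319 for Tgfb1 and 0.0531 for Tgfb3, and both coefficients were negative (-2.04 and -2.54), the sign of a peak at the middle ages. Of all genes 6.69% passed on that term. The quadratic term was fitted to all arrays and was not tested without those that stood apart. Without mouse 3 at 20 weeks, the 20-week log2 fold change of Tgfb3 was 1.64 rather than 0.97, beside 1.83 at 12 weeks. That of Tgfb1 was 0.71 rather than 0.40, beside 1.19 at 12 weeks. The return by 20 weeks was thus smaller without that mouse for both genes. Between neighbouring ages from 8 weeks on, 0 of 10 members passed (1 with an unadjusted limma p under 0.05, Ltbp1 between 16 and 20 weeks, where 7.22% of all genes did). Of all genes, 0.0055% rose and 0% fell from 8 to 12 weeks, 0% rose and 0.0055% fell from 12 to 16 weeks, and 0.011% rose and 0.0165% fell from 16 to 20 weeks. Ordered by their means, all 3 ligand genes and Tgfbr1 were lowest at 4 weeks, Tgfb1 and Tgfb3 highest at 12 weeks and Tgfb2 and Tgfbr1 highest at 8 weeks. For Tgfb1 the place of 12 weeks above 16 weeks was that of the means with mouse 2 at 16 weeks included. Its medians were 6.77 at 12 weeks and 6.92 at 16 weeks, and the 16-week log2 fold change was the larger one without that mouse, without the 3 arrays that stood apart (1.17 against 0.99), with array weights (1.08 against 0.94), with the upper quartile covariate (0.92 against 0.68) and after quantile normalization (0.98 against 0.92). Along these orders a neighbouring step exceeded the larger of its 2 SDs only for Tgfb3, from 8 to 12 weeks, and for Ltbp1, from 8 to 20 weeks.

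Across the 25 arrays, Tgfb2, Tgfb3 and Tgfbr1 varied together. Pearson's r was 0.92 between Tgfb2 and Tgfb3, 0.78 between Tgfb2 and Tgfbr1 and 0.74 between Tgfb3 and Tgfbr1. It was 0.81, 0.79 and 0.62 over the 22 arrays left after taking out the 3 that stood apart. Tgfb1 was less tied to them. Its r with Tgfb2 was 0.70 over 25 arrays and 0.36 over 22, and with Tgfb3 0.72 and 0.44. Tgfbi went the other way in the 22 arrays, with r of -0.63 to Tgfb2 and -0.65 to Tgfb3. It followed Tgfbr2 (0.62). These are descriptions, since the arrays share ages and each pair shares an array's overall brightness.

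The remaining genes of the pathway were sorted into 5 lists by role, with 72 of 75 measured. Of these, 0, 4, 1 and 2 rose at the 4 later ages in turn and 1, 2, 1 and 0 fell. The share of all genes that rose was 1.48%, 5.66%, 1.71% and 1.14%, and 0.78%, 1.36%, 1.68% and 1.52% fell. The median log2 fold change of the 72, of which 55 had an expressed probe set, was 0.10, 0.01, -0.03 and 0.02. Over all genes it was -0.03, -0.031, -0.015 and 0.037, and over genes with an expressed probe set 0.098, 0.14, 0.018 and 0.065. Without the 20-week array of mouse 3, 4, 10, 4 and 7 of the 72 rose and 2, 3, 2 and 0 fell. In that fit 5.14%, 13.3%, 4.11% and 6.23% of all genes rose and 1.68%, 3.29%, 3.23% and 2.65% fell.

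Among 11 genes of the latent complex and its activation, Furin, the protease that cuts the TGF beta propeptide, was the one that rose at 3 ages. Its mean was 8.73 ± 0.27 (SD, n = 5) at 4 weeks and 9.45 ± 0.174 at 16 weeks, and its log2 fold change was 0.54 (adjusted p = 0.00908) at 12 weeks, 0.71 (0.00133) at 16 weeks and 0.44 (0.0491) at 20 weeks. Itgav, the alpha chain of the integrins that free latent TGF beta, rose at 20 weeks alone (0.40, adjusted p = 0.041). The 20-week calls were not firm, as that of Furin was lost under 6 of 10 other settings and without any 1 of 18 arrays, and that of Itgav under 5 settings and without any 1 of 15 arrays. The 12- and 16-week calls of Furin were lost with quantile normalization alone. Thbs1, the activator thrombospondin, had the largest differences of the list (2.20, 2.10, 1.51 and 1.81) and did not pass, with an SE of 0.803.

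Of 9 co-receptors and binding proteins, Tgfbrap1, a receptor-associated adaptor, rose at 12 weeks (0.52, adjusted p = 0.0425), a call lost under 6 of 10 other settings and without any 1 of 14 arrays. Eng, the endothelial co-receptor endoglin, was at -0.47 (adjusted p = 0.0685) at 8 weeks, and Vasn, a secreted trap for TGF beta, at 0.62 (0.0883) at 20 weeks. Of 15 Smads and regulators, Pmepa1, a target that damps Smad signalling, rose at 12 weeks (0.54, adjusted p = 0.0287), a call lost under 4 settings and without any 1 of 4 arrays. Tgif2, a Smad corepressor, was at 0.55 at 16 weeks (adjusted p = 0.0631) and Nedd4l, a ubiquitin ligase that acts on Smads, at -0.38 (0.0776).

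Of 14 further target genes, Tagln, a smooth muscle actin-binding protein, rose at 12 weeks (1.67, adjusted p = 0.0474) and Lox, the collagen cross-linking enzyme, fell (-0.94, adjusted p = 0.0473). Each call was lost under 1 setting, that of Tagln also without any 1 of 19 arrays and that of Lox without any 1 of 20. The mean of Lox was 3.94 at 4 weeks and 3.00 at 12 weeks, the latter below the expression cutoff of 3.27. Ccn2, a connective tissue growth factor and a classical target, had a mean of 6.99 ± 0.697 (SD, n = 5) at 4 weeks, 9.11 ± 0.288 at 8 weeks and 9 ± 0.123 at 12 weeks. Its log2 fold changes of 2.11, 2.01, 1.93 and 0.49 did not pass (adjusted p = 0.0983, 0.0667, 0.125 and 0.822). Without the 20-week array of mouse 3 it rose at all 4 ages. Postn, or periostin, was at 1.33 (0.0587) and 1.07 (0.0806) at 8 and 12 weeks. In the bone morphogenetic protein (BMP) and activin arm of 23 genes, Id3, a target of BMP signalling, fell at 8, 12 and 16 weeks (-0.90, -1.11 and -0.92, adjusted p = 0.043, 0.00581 and 0.0289), and the other 22 did not pass at any age. Its 12-week call held under all 10 settings and each array left out, its 8-week call was lost under 3 settings and without any 1 of 17 arrays, and its 16-week call under 1 and without any 1 of 6.

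The matrix genes stood against all of this. Of 29 measured members of a list of 30 collagens, laminins, nidogens and other matrix genes, 13, 15, 21 and 19 fell at the 4 later ages in turn and 0 rose at any of them. The list was chosen with its fall in these mice known, so the counts describe the fall and are no independent evidence of it. Its median log2 fold change was -0.63, -0.96, -1.33 and -1.20. Col1a1, which encodes the alpha 1 chain of type I collagen, fell by 1.89, 2.55, 3.40 and 2.85 on the log2 scale (SE 0.242, adjusted p = 2.36e-08 at 16 weeks), from a mean of 8.89 ± 0.278 (SD, n = 5) at 4 weeks to 5.49 ± 0.486 at 16 weeks. Col1a2, its partner chain, fell by 3.38 at 16 weeks, Col3a1, type III collagen, fell by 3.08, and Nid1, a basement membrane linker, fell by 2.01. Lox, Postn and Fn1 stood in this list as well as among the target genes, and Dcn and Bgn also among the co-receptors and binding proteins. In this bulk tissue fewer cells of a type and less RNA per cell cannot be told apart.

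**Figure D3:**
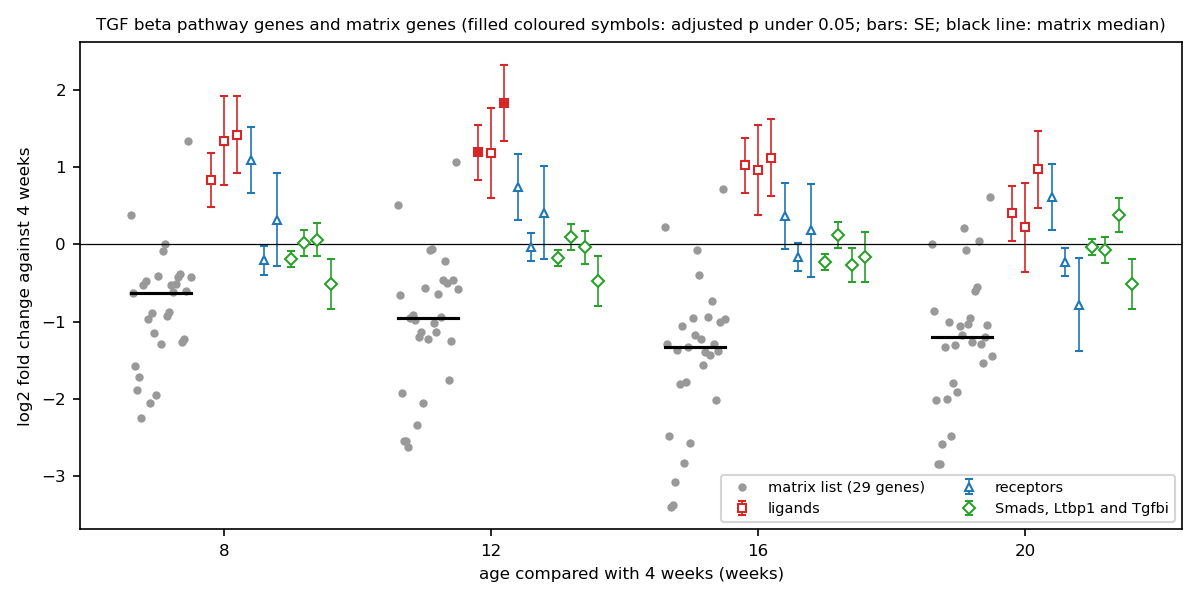
Log2 fold change against 4 weeks at 8, 12, 16 and 20 weeks, for the 29 matrix genes (grey, with the median as a black line) and the 10 TGF beta genes (coloured, with SE from the fit to 25 arrays). Filled coloured symbols are the 2 that rose, Tgfb1 and Tgfb3 at 12 weeks. The matrix medians of -0.63 to -1.33 lie below every ligand gene at every age.

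The matrix values and the ligand values were also set side by side in each mouse. The mean of the matrix list per mouse, less its 4-week mean, was 0 ± 0.303 (SD, n = 5), -0.83 ± 0.119, -1.01 ± 0.168, -1.45 ± 0.391 and -1.22 ± 0.429 from 4 to 20 weeks. It was lowest at 16 weeks, where the mean of Tgfb3 was 7.55 ± 0.499, against 8.26 ± 0.213 at 12 weeks, a difference that did not pass. For Tgfb1 the age of the highest mean depended on mouse 2 at 16 weeks, without which its log2 fold change was larger at 16 weeks (1.37), the age of the matrix minimum, than at 12 weeks (1.19). Across 25 arrays the matrix mean was close to uncorrelated with Tgfb1 (r = -0.19), Tgfb2 (0.07) and Tgfb3 (-0.11). Over the 22 arrays without the 3 that stood apart, r was -0.74, -0.34 and -0.53. Within ages, after the age means were taken off, r in those 22 was -0.23 for Tgfb1, 0.42 for Tgfb2 and 0.44 for Tgfb3. Over all 25 arrays the within-age values were 0.55, 0.71 and 0.71, so they moved strongly with the 3 arrays of low upper quartile, and for Tgfb1 the sign turned.

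**Figure D4:**
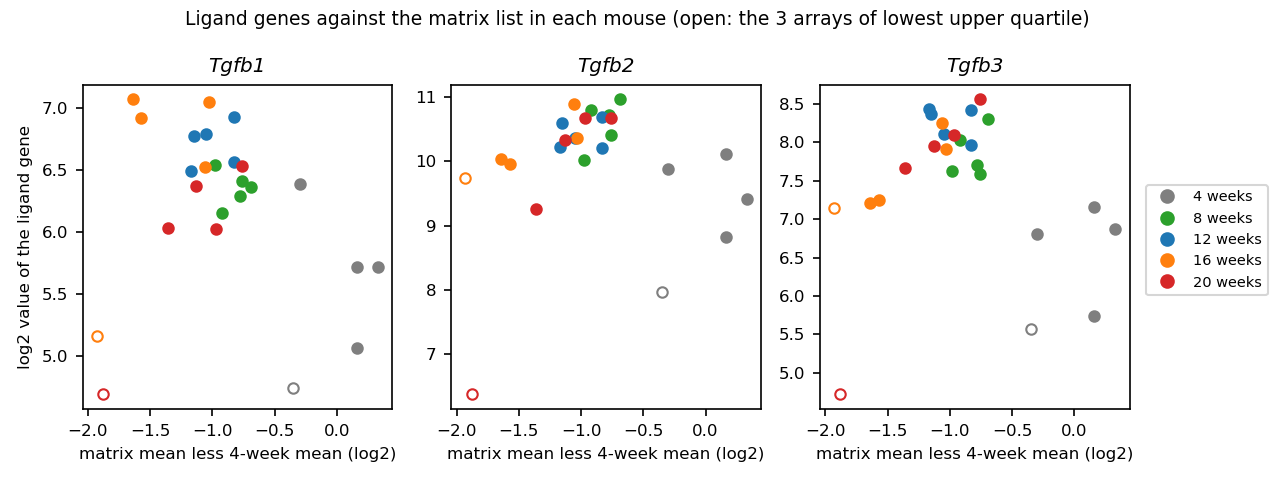
Log2 values of Tgfb1, Tgfb2 and Tgfb3 (vertical axes) against the mean of 29 matrix genes less its 4-week mean (horizontal axes, log2 units) in each of 25 mice, coloured by age. Open points are the 3 arrays of lowest upper quartile. The 4-week mice sit apart at matrix values of -0.35 to 0.33, and all later mice lie at -0.69 or lower.

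Markers of other cell types were read beside these results. Of 5 myoepithelial and smooth muscle genes 1 rose, Cnn1 at 12 weeks (1.91, adjusted p = 0.0308), and their median log2 fold change was 0.87, 1.17, 0.76 and 0.14 from 8 to 20 weeks. Their summed level ran from 11.93 to 13.28 at 4 weeks and from 13.38 to 13.55 at 12 weeks, and all 5 genes had an expressed probe set. Of 5 fibroblast genes 2, 3, 3 and 2 fell, but Col1a1 and Lum stand in the matrix list too. Of the 3 outside it (Pdgfra, Pdgfrb and Dpt) 1, 2, 2 and 1 fell, with Pdgfrb, a growth factor receptor, at -1.04 to -1.19. Of 5 endothelial genes, 2 of them expressed, 0, 3, 3 and 2 fell. Of 5 macrophage genes 0 passed at any age (medians 0.20, 0.48, 0.52 and 0.18), and of 5 T cell and 3 B cell genes 0 passed as well. The summed level of the macrophage genes was 8.91 to 9.45 at 4 weeks and 9.58 to 10.18 at 12 weeks. Of 4 genes of dividing cells 3 fell at every age, with Cdk1 at -3.04 at 8 weeks. The part of these cell types in the ligand and matrix results was not tested.

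The genes most like each ligand gene in pattern, by Pearson's r over 25 arrays among genes with an expressed probe set, included smooth muscle genes for Tgfb2 and Tgfb3. Myh11, smooth muscle myosin, was the closest to Tgfb2 (r = 0.976, 0.971 within ages and 0.932 over 22 arrays). Cnn1, the smooth muscle protein calponin, was next to Sc5d, a sterol synthesis enzyme, at the top for Tgfb3 (0.960 and 0.963, and 0.917 and 0.926 over 22 arrays). Uhrf1bp1l (0.966) and Clint1 (0.962) followed for Tgfb2 and Abhd12 (0.960) for Tgfb3, with 0.921, 0.871 and 0.904 over 22 arrays. The closest to Tgfb1 were Zc3hc1 (0.906), Cdk2ap2 (0.902) and Tgm2 (0.891), the last a transglutaminase, with 0.808, 0.791 and 0.789 over 22 arrays. Tgfbi was nearest to Igfbp4, an insulin-like growth factor binding protein (0.867, and 0.840 over 22 arrays), and Vim, the mesenchymal filament vimentin (0.823 and 0.756). The best match of Tgfbr1 was Kdm7a (0.919), of Tgfbr2 Nap1l1 (0.897), of Tgfbr3 Adcy6 (0.936), of Smad3 Abhd1 (0.916), of Smad7 Plcg2 (0.812) and of Ltbp1 Prkaa1 (0.792). Over 22 arrays these were 0.878, 0.793, 0.729, 0.679, 0.785 and 0.742 in the same order, so those of Tgfbr3 and Smad3 leaned on the 3 arrays that stood apart.

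Some settings gave more member calls than the reported fit. With limma array weights, which give less weight to arrays that deviate, 3, 4, 3 and 5 members rose at 8, 12, 16 and 20 weeks. Tgfb2 and Tgfb3 were among them at every age, Tgfb1 from 12 weeks on, Tgfbr1 at 8, 12 and 20 weeks and Ltbp1 at 20 weeks. Tgfbi fell at 12 weeks and Smad3 at 16 weeks. In the same fit 6.84%, 20.5%, 8.61% and 13.5% of all genes rose, and 34.4% fell at 12 weeks and 11.3% at 16 weeks. Without the 3 arrays that stood apart, another setting chosen after the data were seen, 2, 2, 2 and 1 members rose, where 3.81%, 10.9%, 5.79% and 5.27% of all genes rose. Tgfb3 was among them at all 4 ages, Tgfb1 at 12 and 16 weeks and Tgfb2 at 8 weeks.

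**Figure D5:**
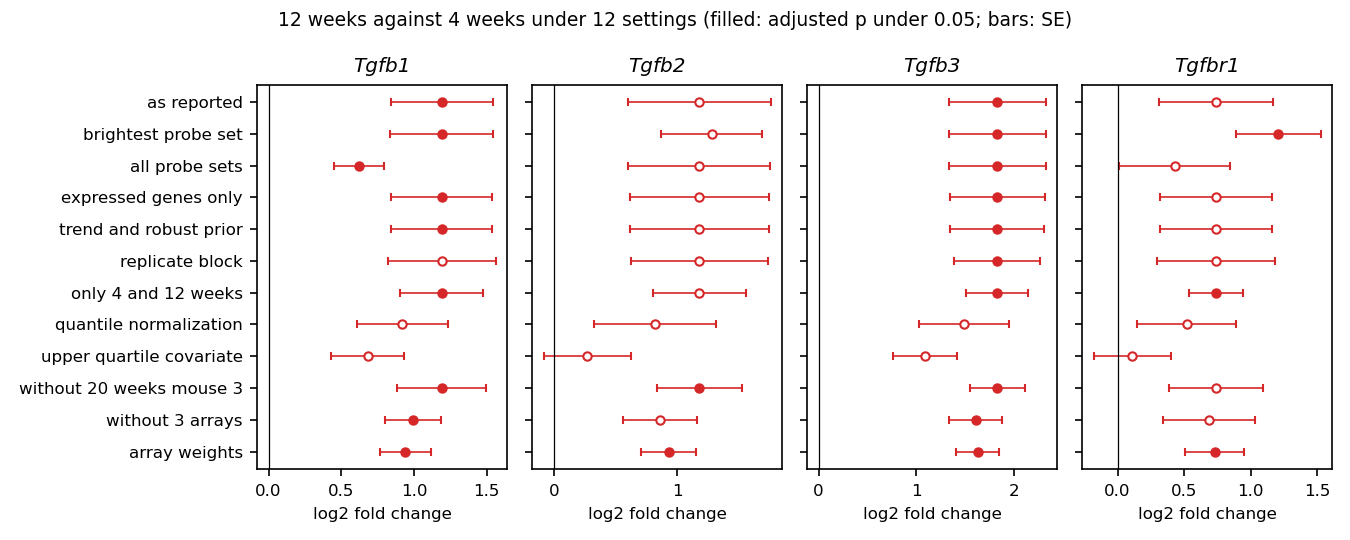
Log2 fold change of Tgfb1, Tgfb2, Tgfb3 and Tgfbr1 at 12 weeks against 4 weeks (horizontal axes, with SE) as reported and under 11 other settings. Filled points have an adjusted p under 0.05. All points lie above 0, and those with the upper quartile as a covariate are 0.68 for Tgfb1, 0.27 for Tgfb2, 1.09 for Tgfb3 and 0.11 for Tgfbr1.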

How the data were processed

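Per the methods and labels, salivary gland RNA of 25 male mice was hybridised to Affymetrix whole-genome mouse arrays, 1 mouse per array, and the authors deposited log2 expression values of 45101 probe sets. The methods name GCRMA and the submitters' processing notes RMA, so the summary behind the log2 values is not settled. Values ran from 0.13 to 16.94. Arrays were grouped by labelled age, 5 mice each, and the number of arrays limits the precision. Files without scanner intensities leave brightness and detection calls per probe unknown.

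Of 35890 probe sets in GEO's annotation, 34958 had 1 gene symbol and 932 several, and 9211 were not listed there. Symbols were updated by gene ID (34754 matched, 204 kept). A gene's value was the mean of its probe sets whose mean over all arrays exceeded 3.266, the median of that mean, or of all where none did. Means were fitted per age in limma 3.58.1 (R 4.3.3) with lmFit and eBayes over all 18194 genes and contrasts against 4 weeks and between neighbouring ages, with a moderated F-test, polynomials of age (B over 1.5, prior share 0.01) and Benjamini-Hochberg adjustment per contrast. The code was tested on simulated data. Figures used Python 3.11.15 and matplotlib 3.10.9. The ages are of separate mice. Members, lists and tests were chosen with earlier results of these data known. The named genes were all 10 members, up to 4 genes per pathway list with the smallest adjusted p, 4 matrix genes and the genes closest to each member. Alternatives were other ways to combine probe sets, quantile normalization, only expressed genes, array weights, another variance prior, only the ages compared, a block on the replicate number, leaving out each array, and, chosen after the data were seen, leaving out 3 arrays and an upper quartile covariate.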

Additional observations from a re-analysis of the deposited data

Results flagged for a closer look

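Of 50 groups of 5 mice (10 genes at 5 ages), 7 held a single mouse whose gap to the nearest other mouse was large against the whole range of its group by Dixon's 95% criterion, and chance flags about 1 in 20 such groups. Of these, 4 were mouse 3 at 20 weeks, the array most distant from its group. Its Tgfb1 was 4.69 (nearest 6.02) and its Tgfb3 4.72 (nearest 7.66), both low, while its Smad3 was 5.51 (nearest 4.99) and its Smad7 6.15 (nearest 5.64), both high. Mouse 2 at 16 weeks, another array of low upper quartile, was low in Tgfb1 at 5.16 (nearest 6.52) and in Tgfbr2 at 4.40 (nearest 5.28). Mouse 4 at 8 weeks was high in Tgfbi at 7.87 (nearest 7.01), and its array did not stand apart by upper quartile (5.77).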

How the results depend on the processing

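Of 400 log2 fold changes of members under alternatives other than leaving out 1 array, 351 kept their direction and side of the threshold, 26 gained a call, 5 lost one and 18 changed sign, and the cause was not tested. The Tgfb1 difference at 12 weeks was 0.92 (adjusted p = 0.0868) after quantile normalization, 1.19 (0.0652) with a replicate block and 0.68 (0.129) with the upper quartile covariate, and that of Tgfb3 was 1.49 (0.057) after quantile normalization and 1.09 (0.0589) with that covariate. The replicate numbers did not pair mice (median correlation of deviations -0.043 at the same number, 0.007 at different numbers, 5 of 25 arrays closest to their own number), and the block left 1 member that rose at 12 weeks and 0 and 1 other pathway genes changed at 8 and 20 weeks.

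At 8, 12, 16 and 20 weeks members that rose numbered 3, 4, 3 and 5 with array weights, 2, 2, 2 and 1 without the 3 low arrays and 0, 0, 1 and 0 with the covariate, with 1 at 8 weeks on the brightest probe set and 0 at 12 weeks after quantile normalization. With the covariate 4.21% of all genes rose at 16 weeks, and 1.86% rose at 8 weeks on the brightest probe set. Members that fell numbered 1 at 12 weeks (Tgfbi) and 1 at 16 weeks (Smad3) with array weights, where 34.4% and 11.3% of all genes fell. With the covariate they numbered 1 at 8 weeks (Tgfbr2) and 1 at 20 weeks (Tgfbr3), where 1.29% and 4.76% of all genes fell. The F-test called 4 members with array weights and 2 without the 3 arrays. Its share of all genes in these settings was not counted, so these counts cannot be set against a background. Other pathway genes that changed, 1, 6, 2 and 2 as reported, numbered 12, 28, 18 and 22 with array weights and 6, 14, 8 and 7 without the 3 arrays. Of all genes, 6.84%, 20.5%, 8.61% and 13.5% rose and 6.1%, 34.4%, 11.3% and 22.4% fell with array weights. Without the 3 arrays 3.81%, 10.9%, 5.79% and 5.27% rose and 2.34%, 5.31%, 5.34% and 3.94% fell. These pathway genes were 3, 2, 5 and 1 after quantile normalization and 10 at 16 and at 20 weeks with the covariate. They were 2 and 0 at 8 and 20 weeks on the brightest probe set and 2 and 4 at 8 and 16 weeks among expressed genes. With only the ages compared they were 13 and 0 at 12 and 20 weeks, and with the trend and robust prior 0 at 20 weeks. Of all genes, 1.54%, 3.51%, 2.74% and 1.96% rose and 1.76%, 2.75%, 3.4% and 3.83% fell after quantile normalization. With the covariate 4.21% and 3.34% rose and 4.2% and 4.76% fell at 16 and 20 weeks. With only the ages compared 10.7% rose and 2.86% fell at 12 weeks. Matrix genes that fell numbered 21 at 8 weeks with the covariate, 24 at 12 weeks with array weights and 9 at 20 weeks with only the ages compared. Matrix genes that rose were Postn alone (1) at 8 weeks with quantile normalization, expressed genes, array weights, the covariate or without the 3 arrays, at 12 weeks with only the ages compared or without the 3 arrays, at 16 weeks with array weights or the covariate and at 20 weeks with array weights, and Postn and Bgn (2) at 12 weeks with array weights. At 12 weeks 1029 genes rose and 247 fell as reported, 639 and 500 after quantile normalization, 564 and 467 with the covariate and 3727 and 6253 with array weights. The median of the members at 12 weeks was -0.04 after quantile normalization and 0 with the covariate, against -1.23 and -1.12 for the matrix list.

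Signs that turned were all of differences that did not pass as reported. With the covariate they were Tgfb2 at 20 weeks (-0.08), Tgfbr3 at 8, 12 and 16 weeks (-0.66, -0.57 and -0.01), Smad3 at 20 weeks (0.01), Smad7 at 8 weeks (-0.03) and Ltbp1 at 8 weeks (-0.15). With array weights they were Tgfbr3 at 20 weeks (0.41), Tgfbi at 16 weeks (0.01), Smad7 at 8 and 12 weeks (-0.12 and -0.04) and Ltbp1 at 12 weeks (0.09). Without the 3 arrays they were Tgfbi at 16 weeks (0.14) and Smad7 at 8 weeks (-0.06), after quantile normalization Smad7 at 8 and 12 weeks (-0.21 and -0.14) and Ltbp1 at 8 weeks (-0.06), and with all probe sets Ltbp1 at 8 weeks (-0.01).

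With each array left out in turn, the F-test called 0 to 1 members, and its share of all genes in these fits was not counted. Members that rose numbered 0 to 2, 0 to 3, 0 to 2 and 0 to 1 from 8 to 20 weeks, most without mouse 3 at 20 weeks. Without that mouse 5.14%, 13.3%, 4.11% and 6.23% of all genes rose and 1.68%, 3.29%, 3.23% and 2.65% fell. Other pathway genes that changed numbered 0 to 6, 2 to 13, 1 to 6 and 0 to 7, matrix genes that fell 12 to 14, 13 to 18, 17 to 24 and 17 to 21, and matrix genes that rose 0 to 1 at 8 and 12 weeks. The 12-week difference was 0.99 to 1.4 for Tgfb1 (adjusted p 0.0112 to 0.154) and 1.61 to 2.01 for Tgfb3 (0.000354 to 0.0963). Differences whose sign turned were Tgfb2 at 20 weeks (-0.10 to 0.99), Tgfbr2 at 12 weeks (-0.07 to 0.01) and 16 weeks (-0.27 to 0.04), Tgfbr3 at 16 weeks (-0.05 to 0.53) and 20 weeks (-1.14 to 0), Tgfbi at 16 weeks (-0.38 to 0.17), Smad3 at 20 weeks (-0.15 to 0.04), Smad7 at 8 weeks (-0.09 to 0.11) and Ltbp1 at 8 weeks (-0.09 to 0.19) and 12 weeks (-0.19 to 0.10).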
